A study of Xenopus laevis with 60 samples.

Results

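The Xenopus laevis genes has1, hal.1 and lpar6 were chosen by their strong fall in morphants, embryos injected with antisense morpholinos. These morpholinos blocked the pluripotency factors Pou5f3 and Sox3. X. laevis is allotetraploid, so a gene can have a copy on the L subgenome, on the S subgenome or on both. Every entry of the expression tables with one of these symbols was taken, which gave 4 gene copies (has1.S, hal.1.L, lpar6.L and lpar6.S) of 49580 genes with an exon level. No has1.L or hal.1.S entry was matched by symbol, and these copies were not analysed here. Since that fall served to choose the genes, their levels in morphants are given as a description without a test. Tests are given for developmental stage and for blocked transcription or translation.

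RNA-seq after rRNA depletion was performed on whole wild-type embryos of the Xla.NXR-WTNXR strain, a pair of embryos per sample, in 60 libraries of 29 conditions. Letters A to H mark 8 collections, each the embryos of 1 experimental day, and the stages before and after stage 9 carry no letter. Untreated embryos were sampled at stage 5 (2 libraries, from which the mitochondrial COX2 and COX3 transcripts were removed too), 6 (1), 7 (1), 8 (2), 9 (2 in collection A and 1 in E) and 10.5 (2, with GFP, mCherry and luciferase mRNA spiked in). All embryos labelled stage 9 were at 8 hours after fertilization. Triptolide, which stops RNA polymerase II, was given at 20 uM in DMSO at stage 1 (2 libraries each in collections A and B), and cycloheximide, which stops translation, at 500 ug per mL in DMSO at stage 8 (2 libraries in B). DMSO-treated embryos were the controls (2 libraries in each collection). Treated embryos were collected when untreated embryos of their batch were halfway through stage 9. The paper states that cycloheximide held embryos back from stage 9.

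Morpholinos were injected at stage 1. Collection F holds pou5f3.2+pou5f3.3+sox3 morphants (40 ng per morpholino), pou5f3.2+pou5f3.3 morphants (40 ng per morpholino plus 40 ng of GFP control morpholino) and GFP morphants (120 ng), with 3 libraries each. Collection G holds pou5f3.3+sox3 morphants (40 ng of each plus 40 ng of GFP morpholino) and GFP morphants (120 ng), with 3 libraries each. Collection E has 1 library each of pou5f3.3+sox3 morphants (40 ng of each), GFP morphants (80 ng) and untreated embryos; these doses are those of the labels, while the study's methods give the total of F and G for all embryos without cycloheximide. Morphants that also received cycloheximide came from collection C (pou5f3.3, sox3, pou5f3.3+sox3 and GFP morphants, 40 ng of each, made up to 80 ng in all with GFP morpholino), D (55 ng pou5f3.3 and 75 ng sox3 morpholino, against 80 ng of GFP morpholino) and F (3 libraries of pou5f3.2+pou5f3.3+sox3 morphants, at the doses of F), with 2 libraries per group in C and D. Collection H holds GFP morphants without cycloheximide (120 ng, 2 libraries), which are used for control levels alone. With cycloheximide it holds GFP morphants (120 ng, 3 libraries) and pou5f3.2+pou5f3.3+sox3 morphants (40 ng per morpholino, 2 libraries), with doses as labelled. The cycloheximide libraries of collection H were discarded in the study and are set apart at the end. A morpholino blocks translation and leaves its mRNA in place, so target mRNA levels do not check the knockdown; 8 pou5f3 and sox3 copies summed to 1993 to 2151 TPM in pou5f3.2+pou5f3.3+sox3 morphants, against 1784 to 1842 TPM in GFP morphants of F.

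Has1 is a hyaluronan synthase, an enzyme of the plasma membrane that builds the glycosaminoglycan hyaluronan and extrudes it into the extracellular matrix; it was first found in Xenopus as a transcript of the gastrula. Histidine ammonia-lyase (Hal) removes the amino group of histidine to give urocanate, the first step of histidine breakdown, and is known in mammals from liver and skin. Lpar6 is a G protein-coupled receptor for lysophosphatidic acid (LPA), a signalling lipid; in humans its gene lies within an intron of RB1. Pou5f3 proteins are the Xenopus homologs of mammalian OCT4, and Sox3 is a SOXB1 factor; both are supplied by the egg and take part in the first transcription of the embryonic genome in the blastula.

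In the RefSeq annotation of Xenopus_laevis_v10.1, a later build than that of the counts, has1.S lies on chromosome 3S beside has-rs.S, a hyaluronan synthase-related gene. On chromosome 3L, hal.1.L lies beside hal.2.L, a second histidine ammonia-lyase gene. On chromosome 2L, lpar6.L lies between itm2b.L and acvrl1.L. On chromosome 2S, lpar6.S lies within the span of rb1.S. The table used gives no strand for this pair, so a share of the lpar6.S counts could be rb1.S intron signal if both are read from the same strand. Exons summed to 2945 bases in has1.S (gene12364), 2967 in hal.1.L (gene4893), 3392 in lpar6.L (gene18414) and 3042 in lpar6.S (gene19705). Introns of has1.S (1181 bases) and hal.1.L (9634 bases) were counted separately, and the lpar6 copies have no intron entry. Exon counts per library ran between 6814881 and 25549499, and intron counts between 36766 and 1638148.

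All 4 copies were silent or nearly so before stage 9 and were transcribed in the late blastula. Levels are in TPM, a share of all exon signal of the library scaled for transcript length. has1.S stood at 0.077 and 0.040 TPM at stage 5, 0.443 TPM at stage 6, 0 TPM at stage 7, 0.269 and 1.06 TPM at stage 8, 174 and 185 TPM at stage 9 (collection A), and 1494 and 1503 TPM at stage 10.5. The libraries of stage 9 lay above all earlier ones, and those of stage 10.5 above all others.

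hal.1.L had no exon count in any library of stages 5 to 8, which allows a level of up to 0.117 TPM at stage 5 and 0.398 TPM at stage 8 (3 counts per library, group means). It reached 93.8 and 109 TPM at stage 9 and 477 and 487 TPM at stage 10.5. lpar6.L stood at 0.067 and 0.105 TPM at stage 5, had no count at stages 6 to 8, and reached 32.5 and 49.8 TPM at stage 9 and 74.1 and 73.5 TPM at stage 10.5. lpar6.S had no count at stages 5 to 8 and reached 6.40 and 11.7 TPM at stage 9 and 14.1 and 14.3 TPM at stage 10.5. The stage 10.5 libraries lay above those of stage 9 for each copy, by the widest margin for has1.S.

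**Figure D1:**
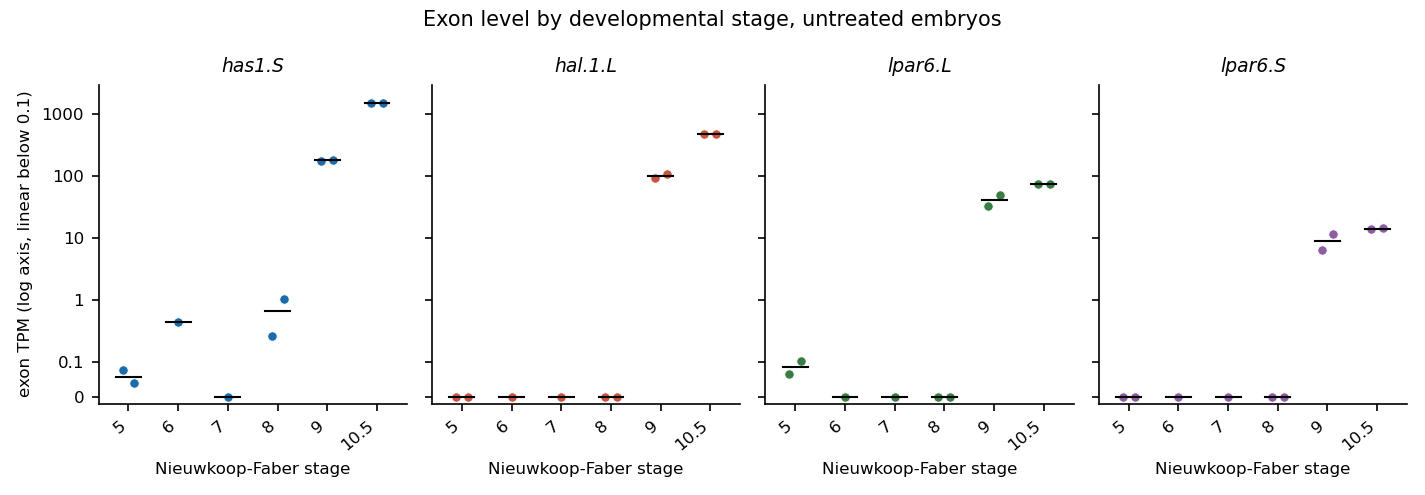
Exon level in TPM of has1.S, hal.1.L, lpar6.L and lpar6.S at Nieuwkoop-Faber stages 5 to 10.5 in untreated embryos (stage 9 of collection A); each point is a library, the bar is the group mean, and the vertical axis is logarithmic above 0.1 TPM and linear below. All 4 copies stand at or below 1.06 TPM up to stage 8 and between 6.40 and 185 TPM at stage 9 of A.

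Exon and intron counts of all genes were compared with edgeR's quasi-likelihood test. Calls needed a p under 0.05 after Benjamini-Hochberg adjustment and a log2 difference of 1.5 or more, in exons or introns. Of 27601 genes tested, 35.4% were called higher at stage 9 than at stage 5 and 6.44% lower. All 4 copies were called higher, which follows in part from their choice. The exon difference was 11.27 on the log2 scale for has1.S (SE 0.29, adjusted p = 8.2e-36) and 8.68 for lpar6.L (SE 0.32, adjusted p = 1.13e-30). Against a floor of 3 counts per library at stage 5, hal.1.L was at least 865-fold higher at stage 9 in exons and at least 1634-fold in introns, has1.S introns at least 207-fold, and lpar6.S at least 79.0-fold. The 3 stage 5 counts of has1.S give a ratio of 3036 with a 95% counting interval of 1038 to 14724. Stages 5 and 8 carry no collection letter, so stage and collection cannot be separated. All 4 were also called at stage 9 against stage 8, where 26.7% of genes were called higher: the has1.S exon difference was 7.92 (SE 0.28, adjusted p = 2.64e-29), and hal.1.L, lpar6.L and lpar6.S were at least 255-fold, 118-fold and 23.3-fold higher against the floor.

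Between stages 5 and 8, 8.31% of genes were called higher and 1 of the 4 copies was: has1.S, with 10 exon counts at stage 8 against 3 at stage 5 (log2 difference 3.35, SE 1.22, adjusted p = 0.0326; ratio of pooled levels 11.3, counting interval 2.91 to 64.0). That call was lost without stage 5 replicate 1 (3.84, adjusted p = 0.0734), without stage 5 replicate 2 (3.00, adjusted p = 0.12), without stage 8 replicate 2 (2.05, adjusted p = 0.593) and in a fit of the 2 groups alone (3.24, adjusted p = 0.0506). lpar6.L, with 0 counts at stage 8 against 5 at stage 5, was not called (adjusted p = 0.497), nor were hal.1.L introns, with 2 counts against 0 (adjusted p = 0.247). The single stage 6 library held 9 has1.S counts and the single stage 7 library none, a level of up to 0.389 TPM.

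From stage 9 to stage 10.5, exon levels of has1.S and hal.1.L rose, whereas their introns were not called higher. Of all genes, 25.7% were called higher at stage 10.5, among them has1.S (log2 difference 3.2, SE 0.12, adjusted p = 1.96e-29) and hal.1.L (2.39, SE 0.11, adjusted p = 4.84e-25). lpar6.L (0.98, SE 0.13) and lpar6.S (0.80, SE 0.19) had adjusted p of 1.62e-09 and 2.08e-04 and stayed under the difference required for a call. Intron signal, in RPKM (intron reads scaled for intron length and for the exon reads of the library), was 23.3 and 23.1 at stage 10.5 for has1.S, against 22.0 and 22.4 at stage 9 (-0.01, SE 0.12, adjusted p = 0.983). For hal.1.L it was 11.4 and 11.7 RPKM at stage 10.5, against 20.9 and 22.1 RPKM at stage 9 (-0.96, SE 0.12, adjusted p = 4.47e-10). Stage 10.5 carries no collection letter, so stage and collection cannot be separated. Means of the stage 9 control groups, which differ in collection and in treatment, differed by ratios of 3.18 (has1.S), 2.55 (hal.1.L), 4.71 (lpar6.L) and 8.58 (lpar6.S). The lpar6 rises therefore cannot be told apart from a difference between collections. Intron means of the same controls ran between 8.39 and 22.3 RPKM for hal.1.L and between 13.1 and 32.5 RPKM for has1.S. The intron differences cannot be told apart from one between collections either. A scaling from exons alone moved the median of all exons by 0.28, so differences of that size cannot be told apart from scaling.

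**Figure D2:**
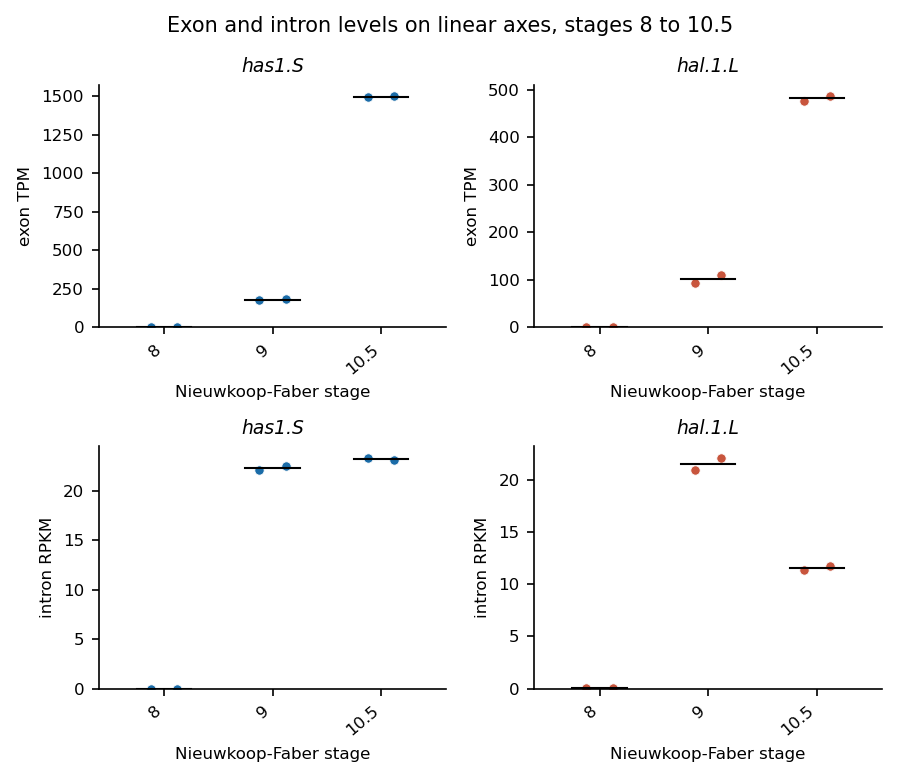
Exon TPM (top) and intron RPKM (bottom) of has1.S and hal.1.L at stages 8, 9 and 10.5 on linear axes; points are libraries and bars group means. The stage 10.5 exon levels are 1494 and 1503 TPM for has1.S and 477 and 487 TPM for hal.1.L, while intron levels are 23.3 and 23.1 RPKM and 11.4 and 11.7 RPKM.

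Blocking transcription removed nearly all of the 4 transcripts. In collection A, has1.S stood at 0.328 and 0.392 TPM with triptolide, against 193 and 201 TPM with DMSO. hal.1.L stood at 0.597 and 0.389 TPM with triptolide, against 95.0 and 109 TPM with DMSO. lpar6.L stood at 0.142 and 0.049 TPM with triptolide, against 35.3 and 39.9 TPM with DMSO. No triptolide library held a lpar6.S count, and the DMSO libraries stood at 7.13 and 7.76 TPM. The groups were far apart for each copy.

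In collection B, has1.S stood at 1.35 and 1.55 TPM with triptolide, against 123 and 119 TPM with DMSO. hal.1.L stood at 0.149 and 0.175 TPM with triptolide, against 73.0 and 74.6 TPM with DMSO. lpar6.L stood at 0.033 and 0.275 TPM with triptolide, against 15.3 and 18.0 TPM with DMSO, and lpar6.S at 0 TPM in both triptolide libraries, against 2.83 and 3.83 TPM with DMSO. As in A, the groups did not overlap for any copy.

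All 4 copies were called lower with triptolide in both collections, where 27.4% (A) and 29.8% (B) of all genes were. That all 4 were called follows in part from their choice. In collection A the exon differences were -8.92 for has1.S (SE 0.25), -7.52 for hal.1.L (SE 0.24) and -8.37 for lpar6.L (SE 0.36), with adjusted p of 3.57e-34, 6.06e-32 and 1.00e-27. lpar6.S was at least 46.3-fold lower with triptolide in A and at least 31.5-fold lower in B. In B the differences were -6.28 for has1.S (SE 0.19), -8.67 for hal.1.L (SE 0.27) and -6.58 for lpar6.L (SE 0.33), with adjusted p of 7.05e-33, 6.53e-33 and 2.24e-24. Introns were called lower as well: has1.S introns had 3 counts with triptolide in A against 829 with DMSO (ratio of levels 306, counting interval 104 to 1489) and differed by -7.84 in B, and hal.1.L introns differed by -7.38 in A and -9.33 in B. The fall of has1.S exons was larger in A than in B: the triptolide effect in A minus that in B was -2.64 (SE 0.56, adjusted p = 0.0105), whereas the same test on has1.S introns gave -0.11 (SE 1.36, adjusted p = 1.00). DMSO itself did not lead to a call: with DMSO against untreated embryos of A, 0.0217% of genes were called in either direction and none of the 4 copies was, nor did any have an unadjusted p under 0.05, with exon differences of 0.15 (SE 0.11) for has1.S, 0.02 (SE 0.11) for hal.1.L, -0.11 (SE 0.13) for lpar6.L and -0.25 (SE 0.20) for lpar6.S.

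Cycloheximide keeps new proteins from being made, so transcripts that still accumulate with it can be made with the proteins present at stage 8. has1.S stood at 4.33 and 5.99 TPM with cycloheximide (collection B), below both DMSO libraries and above both triptolide libraries. hal.1.L stood at 3.26 and 4.65 TPM with cycloheximide, again between the levels with DMSO and triptolide. lpar6.L stood at 0.868 and 0.446 TPM with cycloheximide, and lpar6.S at 0 and 0.055 TPM, where 0.055 TPM is 1 count.

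All 4 copies were called lower with cycloheximide than with DMSO, as were 20.6% of all genes. Blocked translation and the halted stage cannot be told apart in this comparison. Exon differences were -4.63 for has1.S (SE 0.16), -4.30 for hal.1.L (SE 0.17) and -4.68 for lpar6.L (SE 0.28), with adjusted p of 5.47e-29, 1.87e-27 and 8.14e-21. lpar6.S had 1 count with cycloheximide against 138 with DMSO, a ratio of levels of 134 (counting interval 23.6 to 5315). Intron differences were -5.14 for has1.S and -4.89 for hal.1.L. Over triptolide, 14.2% of all genes were called higher with cycloheximide, and has1.S (1.65, SE 0.29, adjusted p = 1.06e-05) and hal.1.L (4.37, SE 0.48, adjusted p = 7.76e-11) were among them, with intron differences of 2.71 (SE 0.70, adjusted p = 2.93e-03) and 4.43 (SE 0.46, adjusted p = 2.22e-11).

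Without cycloheximide replicate 2, the has1.S exon difference over triptolide was 1.40 and under the difference required, while its introns remained called. lpar6.L differed by 1.90 (SE 0.72, adjusted p = 0.0542), not called; it was called without triptolide replicate 2 (3.96, adjusted p = 0.0216), without cycloheximide replicate 2 (2.24, adjusted p = 0.0401), with no filter on low counts (1.82, adjusted p = 0.0329), with a replicate block (1.92, adjusted p = 0.0409) and in DESeq2 (1.95, adjusted p = 4.03e-03). lpar6.S, with 1 count in 4 libraries, could not be compared.

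**Figure D3:**
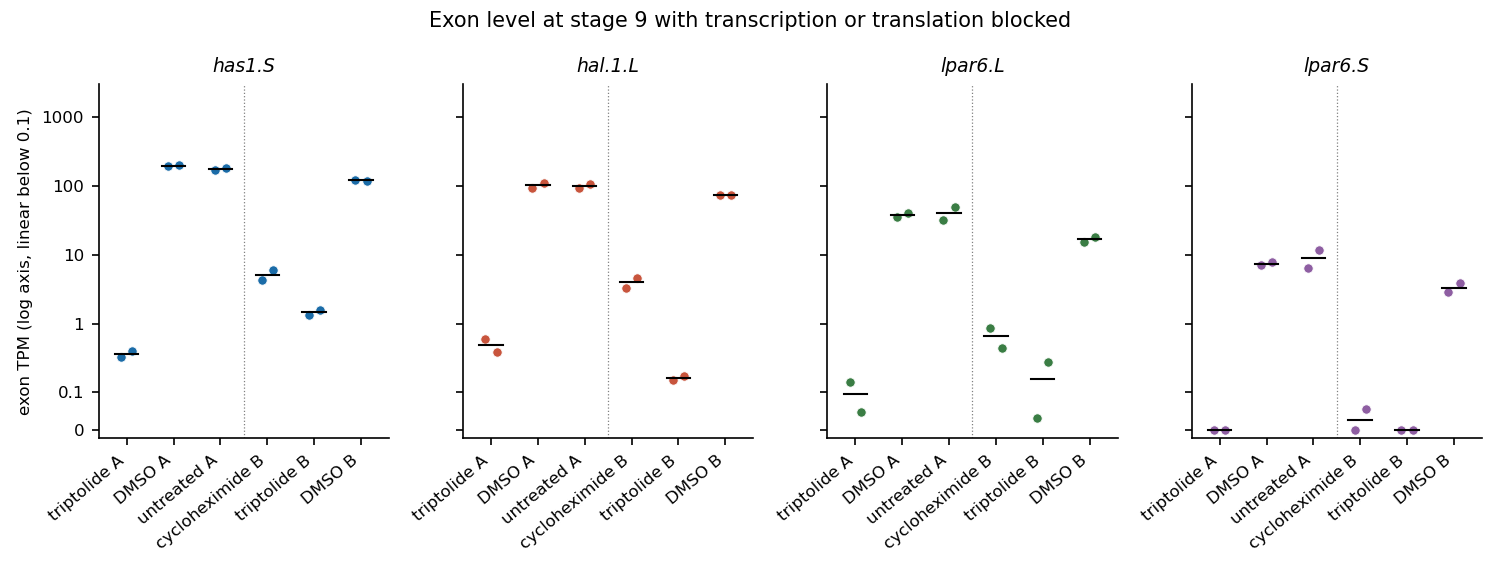
Exon level in TPM of embryos labelled stage 9. Collection A (left of the dotted line) holds triptolide, DMSO or no treatment. Collection B (right) holds cycloheximide, triptolide or DMSO. Points are libraries, bars group means, and the axis is logarithmic above 0.1 TPM and linear below. has1.S and hal.1.L with cycloheximide, at 3.26 to 5.99 TPM, lie between triptolide (0.149 to 1.55 TPM) and DMSO (73.0 to 123 TPM).

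Single morphants with cycloheximide, all of collection C, were set beside each other, without the GFP libraries, as a description. has1.S stood at 1.42 and 1.44 TPM in pou5f3.3 morphants, against 5.56 and 6.98 TPM in sox3 morphants. hal.1.L stood at 0.169 and 0.130 TPM in pou5f3.3 morphants, against 1.58 and 2.04 TPM in sox3 morphants. Both copies were lower in pou5f3.3 morphants with no overlap.

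The fitted log2 difference, pou5f3.3 over sox3 morphants, was -2.12 (SE 0.34) for has1.S exons and -3.51 (SE 0.72) for hal.1.L exons. No test is read from these differences, since the genes were chosen for a fall in morphants. The hal.1.L difference rested on 5 counts against 50. It was -3.72 without pou5f3.3 replicate 1, -3.35 without pou5f3.3 replicate 2, -3.31 without sox3 replicate 2 and -3.49 in a fit of the 2 groups alone. hal.1.L introns had 9 counts in pou5f3.3 against 44 in sox3 morphants (-2.51, SE 0.67). lpar6.L had 1 count in pou5f3.3 morphants against 7 in sox3 morphants, and lpar6.S had none in either group, so neither copy could be compared at this depth.

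The remaining groups of collection C are given as levels. pou5f3.3+sox3 morphants had 1.03 and 0.528 TPM of has1.S, against 3.32 and 8.06 TPM in GFP morphants with cycloheximide. They had 0 and 0.066 TPM of hal.1.L, against 1.78 and 5.57 TPM in GFP morphants. GFP replicate 2 was the higher for both genes; the pou5f3.3+sox3 libraries lay below both GFP libraries, and the sox3 morphants overlapped them. In collection D, with the larger doses, pou5f3.3+sox3 morphants had 0.057 and 0.237 TPM of has1.S and no hal.1.L count, against 2.93 and 1.29 TPM of has1.S and 1.83 and 0.884 TPM of hal.1.L in GFP morphants; the total morpholino dose differed between these groups. pou5f3.2+pou5f3.3+sox3 morphants of collection F with cycloheximide had 0.277, 0.406 and 0.578 TPM of has1.S and 1 hal.1.L count in each of 3 libraries (0.055, 0.067 and 0.057 TPM). lpar6.L stood at 0.119 and 0.057 TPM in pou5f3.3+sox3 morphants of C, against 0.346 and 0.207 TPM in GFP morphants, and at 0 and 0.165 TPM in those of D, against 0.989 and 0.687 TPM. These lpar6.L levels rest on 3 counts against 10 in C and 4 against 37 in D. lpar6.S had no count in any library of C and D or in the 3 of F.

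The genes were chosen for their fall in morphants, and lpar6.L was taken along by its symbol. The following values, without cycloheximide, describe the size of the fall. In collection F, has1.S stood at 33.7, 27.9 and 28.4 TPM in pou5f3.2+pou5f3.3+sox3 morphants and at 55.1, 40.6 and 44.3 TPM in pou5f3.2+pou5f3.3 morphants, against 160.4, 173 and 160.6 TPM in GFP morphants. hal.1.L stood at 4.53, 2.94 and 2.76 TPM in pou5f3.2+pou5f3.3+sox3 morphants and at 21.7, 23.6 and 28.1 TPM in pou5f3.2+pou5f3.3 morphants, against 88.9, 108 and 96.8 TPM in GFP morphants. The levels of both genes were lowest in the morphants injected with all 3 morpholinos, and no group overlapped another.

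lpar6.L stood at 5.84, 4.14 and 4.89 TPM in pou5f3.2+pou5f3.3+sox3 morphants and at 10.9, 9.81 and 9.87 TPM in pou5f3.2+pou5f3.3 morphants, against 27.5, 31.3 and 33.3 TPM in GFP morphants. lpar6.S stood at 0.055, 0 and 0 TPM in pou5f3.2+pou5f3.3+sox3 morphants and at 0 TPM in all 3 pou5f3.2+pou5f3.3 libraries, against 9.02, 13.4 and 11.1 TPM in GFP morphants. The L copy thus kept a measurable level in each morphant library, whereas a single lpar6.S count remained in 6 libraries.

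In collection G, has1.S stood at 16.3, 14.7 and 14.3 TPM in pou5f3.3+sox3 morphants, against 71.1, 68.6 and 54.9 TPM in GFP morphants. hal.1.L stood at 0.904, 1.07 and 0.820 TPM in pou5f3.3+sox3 morphants, against 44.6, 36.0 and 41.6 TPM in GFP morphants. lpar6.L stood at 3.23, 2.27 and 2.45 TPM in pou5f3.3+sox3 morphants, against 11.7, 8.25 and 8.74 TPM in GFP morphants. lpar6.S, at 0.074, 0.050 and 0 TPM in pou5f3.3+sox3 morphants against 1.63, 1.43 and 1.03 TPM in GFP morphants, was again the copy nearest to 0. The single libraries of collection E went the same way, with 41.0 TPM in the pou5f3.3+sox3 morphant against 173 TPM in the GFP morphant for has1.S, 2.95 against 90.5 TPM for hal.1.L, 9.74 against 45.0 TPM for lpar6.L and 0.144 against 11.7 TPM for lpar6.S. The untreated library of E had 105 TPM of has1.S, 71.1 TPM of hal.1.L, 18.7 TPM of lpar6.L and 4.79 TPM of lpar6.S, below the GFP morphant for each copy.

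**Figure D4:**
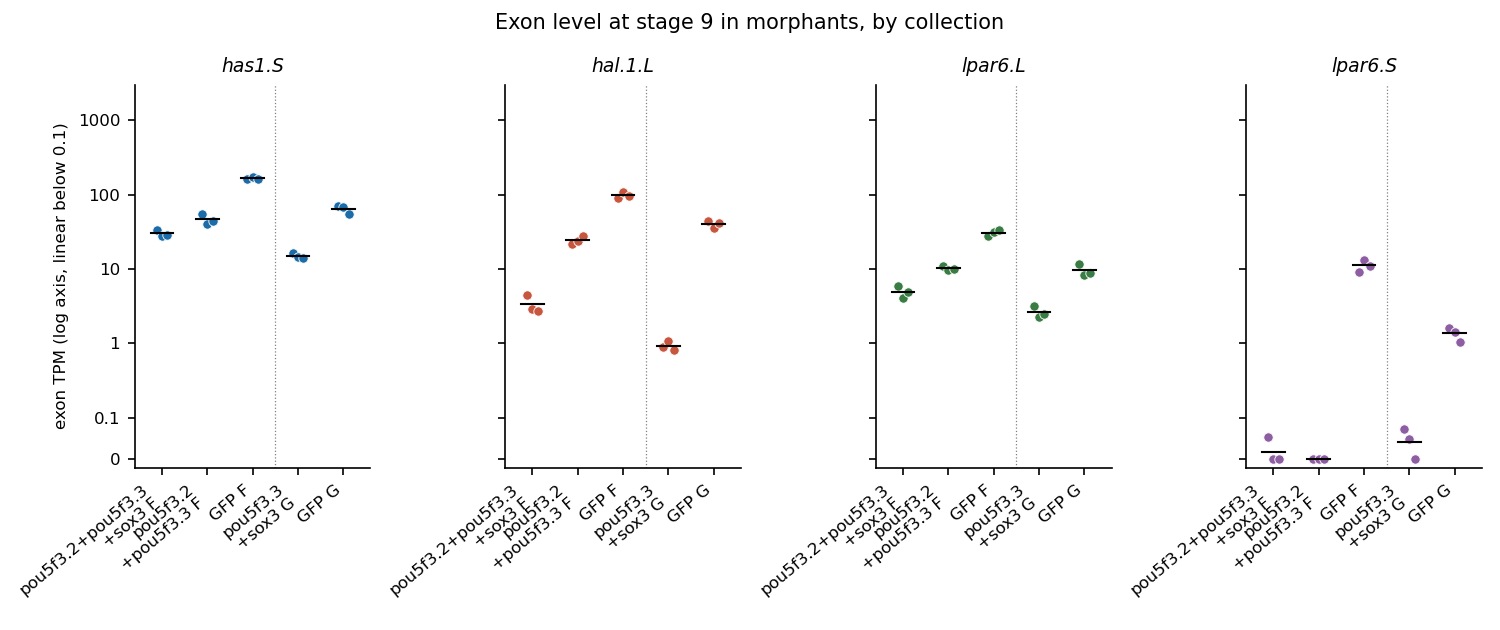
Exon level in TPM at stage 9 in pou5f3.2+pou5f3.3+sox3, pou5f3.2+pou5f3.3 and GFP morphants of collection F (left of the dotted line) and pou5f3.3+sox3 and GFP morphants of collection G (right); points are libraries, bars group means, and the axis is logarithmic above 0.1 TPM and linear below. lpar6.S lies at or below 0.074 TPM in all 9 morphant libraries, against 1.03 to 13.4 TPM in GFP morphants.

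Mean has1.S exons stood at 18.2% of the GFP mean in pou5f3.2+pou5f3.3+sox3, 28.3% in pou5f3.2+pou5f3.3 and 23.2% in pou5f3.3+sox3 morphants. For hal.1.L the values were 3.49%, 25.0% and 2.29% in the same order, and for lpar6.L 16.1%, 33.2% and 27.8%. In collection F, hal.1.L introns stood at 1.06, 0.689 and 0.575 RPKM in pou5f3.2+pou5f3.3+sox3 and at 4.74, 6.48 and 6.33 RPKM in pou5f3.2+pou5f3.3 morphants, against 19.6, 24.0 and 21.4 RPKM in GFP morphants. In G they stood at 0.155, 0.248 and 0.246 RPKM in pou5f3.3+sox3 morphants, against 9.76, 8.69 and 9.74 RPKM in GFP morphants. The intron levels thus separated the groups as the exon levels did: has1.S introns kept 18.6%, 29.5% and 29.1%, and hal.1.L introns 3.57%, 27.0% and 2.30%. Against a floor of 3 counts per library, lpar6.S was at least 65.4-fold lower in pou5f3.2+pou5f3.3 morphants, and its few counts give ratios of 568 in pou5f3.2+pou5f3.3+sox3 (1 count against 548, counting interval 101 to 22458) and 33.6 in pou5f3.3+sox3 morphants of G (2 counts against 60, interval 8.91 to 284). The comparisons of collection F share their GFP libraries. In bulk embryos, fewer expressing cells and less RNA per cell cannot be told apart.

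Ranked by the fitted exon difference among genes with at least 1 TPM in GFP morphants, the copies stood near the top of the falls, as the choice of the genes implies. lpar6.S ranked 1 in pou5f3.2+pou5f3.3, 3 in pou5f3.2+pou5f3.3+sox3 and 10 in pou5f3.3+sox3 morphants. hal.1.L ranked 109, 47 and 5, has1.S 127, 143 and 77, and lpar6.L 158, 130 and 96, of 19269 genes in F and 19362 in G. The ranks of lpar6.S rest on 2 counts or fewer per morphant group, and its order against hal.1.L in G is not resolved.

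The L copy made up most of the lpar6 transcript wherever both were measured. In morphants, lpar6.S held 0% to 0.933% (pou5f3.2+pou5f3.3+sox3), 0% (pou5f3.2+pou5f3.3), 0% to 2.24% (pou5f3.3+sox3, G) and 1.46% (pou5f3.3+sox3, E) of the summed lpar6 TPM. In GFP morphants the share was 24.7% to 29.9% in F, 10.6% to 14.8% in G and 20.7% in E. It was 16.3% to 16.8% and 15.6% to 17.5% with DMSO in A and B, 16.5% to 19.0% in untreated stage 9 embryos of A and 16.0% to 16.3% at stage 10.5. Exon counts of rb1.S, the gene whose span holds lpar6.S, were not called in any of these morphants (-0.14, -0.02 and -0.12 on the log2 scale), and neither were its introns (-0.81, -0.42 and 0.21). Reads of near-identical copies can be assigned to the wrong homeolog, and this was not tested.

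Control levels at stage 9 differed between groups, which differ in collection and in treatment, by more than they did between replicates. Over 16 libraries of 8 untreated, DMSO or GFP groups, has1.S means ran between 61.9 TPM (GFP morphants of H) and 197 TPM (DMSO of A), a ratio of 3.18, with a median library at 142 TPM. hal.1.L means ran between 39.9 and 102 TPM in the same groups (ratio 2.55). The lpar6 copies varied more, between 9.55 TPM (GFP morphants of G) and 45.0 TPM (GFP morphants of E) for lpar6.L and between 1.37 and 11.7 TPM for lpar6.S in the same groups (ratios 4.71 and 8.58). All morphant comparisons above were therefore made within a collection.

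Over the 21 replicated conditions outside collection H, stage 10.5 held the highest mean of each copy (1498 ± 6.16 TPM for has1.S, 482 ± 7.02 TPM for hal.1.L, 73.8 ± 0.363 TPM for lpar6.L and 14.2 ± 0.176 TPM for lpar6.S, SD, n = 2) and overlapped no other. For has1.S, DMSO of A, untreated A, GFP morphants of F, DMSO of B and GFP morphants of G followed without overlap, and the GFP morphants of G overlapped the pou5f3.2+pou5f3.3 morphants of F. For hal.1.L, DMSO of A, untreated A and GFP morphants of F overlapped, and lay above DMSO of B and then GFP morphants of G. The hal.1.L level in pou5f3.2+pou5f3.3+sox3 morphants (3.41 ± 0.973 TPM, SD, n = 3) overlapped that of GFP morphants of C with cycloheximide (3.67 ± 2.68 TPM, SD, n = 2).

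Of 37 copies on the hyaluronan list, 22 were tested. At stage 9 against stage 5, 9 were called higher and 2 lower, against 35.4% and 6.44% of all genes (median exon difference 0.08, against -0.16 over all genes). Those higher in exons were the synthase genes has2.L and has2.S and has-rs.S, while 6 were higher in introns alone. The hyaluronan-degrading cemip.S (-4.19, SE 0.40) and the link protein gene hapln1.L (-2.58, SE 0.53) were lower. With triptolide in B, 11 were called lower, against 29.8% of all genes. In morphants, has-rs.S was called lower in pou5f3.2+pou5f3.3+sox3 morphants (-1.92, SE 0.12, adjusted p = 9.78e-19). Its differences of -0.63 (SE 0.11) in pou5f3.2+pou5f3.3 and -1.07 (SE 0.14) in pou5f3.3+sox3 morphants stayed under the required size. ugp2.S, which supplies UDP-glucose, was called higher through its introns in all 3 (3.50, 3.12 and 2.67). No other copy was called, with list medians of 0.03, -0.02 and -0.13. The well-expressed copies hmmr.L (a hyaluronan receptor), ugdh.L and ugdh.S (UDP-glucuronate supply), hyal2.S (a hyaluronidase), ugp2.L, cemip2.L and cemip2.S had exon differences between -0.40 and 0.09. Over all genes, 2.83% were called lower and 3.86% higher in pou5f3.2+pou5f3.3+sox3, 1.62% and 2.24% in pou5f3.2+pou5f3.3, and 1.45% and 3.41% in pou5f3.3+sox3 morphants.

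Of 14 copies on the histidine list, 11 were tested. At stage 9 against stage 5, hal.2.L was called higher through its introns, and cndp1.L (a carnosine-cleaving peptidase) and hnmt.L (histamine methyltransferase) were called lower. Over all genes, 35.4% were called higher and 6.44% lower in that comparison. With triptolide in B, 1 copy of the list was called lower, against 29.8% of all genes: hal.2.L through its introns (-4.11, adjusted p = 1.50e-10). Transcripts of the enzymes that act after histidine ammonia-lyase were already present at stage 5 and, like most genes, were not called in morphants. In pou5f3.2+pou5f3.3+sox3 morphants 2.83% of all genes were called lower and 3.86% higher. The shares were 1.62% and 2.24% in pou5f3.2+pou5f3.3 and 1.45% and 3.41% in pou5f3.3+sox3 morphants. uroc1.L (urocanate hydratase) stood at 86.4 and 79.7 TPM in pou5f3.2+pou5f3.3+sox3 and pou5f3.2+pou5f3.3 morphants, against 84.1 TPM in GFP morphants of F. In the same groups amdhd1.L stood at 29.5 and 31.9 TPM against 29.0 TPM, and ftcd.L at 27.8 and 28.5 TPM against 31.2 TPM. At stage 5 they stood at 81.0, 31.0 and 33.3 TPM. The dipeptidases cndp2.L, cndp2.S and cndp1.L, the histidyl-tRNA synthetase gene hars2.L and hnmt.L were likewise not called in any morphant.

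The single copy of the histidine list called in morphants was hal.2.L, the neighbour of hal.1.L, lower in all 3 comparisons. It is named after its values were seen. Of all genes, 2.83% (pou5f3.2+pou5f3.3+sox3), 1.62% (pou5f3.2+pou5f3.3) and 1.45% (pou5f3.3+sox3) were called lower. hal.2.L is a weakly expressed, partly maternal transcript, at 3.25 ± 0.598 TPM at stage 9 and 2.29 ± 0.124 TPM at stage 5 (SD, n = 2 each). In pou5f3.2+pou5f3.3+sox3 morphants hal.2.L had 3 exon counts against 177 in GFP morphants (ratio of levels 61.1, counting interval 20.6 to 299, adjusted p = 1.94e-15). Its exon differences were -1.43 (SE 0.24, adjusted p = 5.27e-06) in pou5f3.2+pou5f3.3 and -2.28 (SE 0.34, adjusted p = 6.19e-07) in pou5f3.3+sox3 morphants, and its intron differences -6.75, -1.78 and -4.50 in the 3 comparisons. Set beside the kept levels of hal.1.L, hal.2.L exons kept 1.73%, 37.2% and 21.5% and its introns 0.927%, 29.8% and 5.03%. has-rs.S kept 27.3%, 65.9% and 50.3% of its exons and 29.7%, 68.8% and 51.7% of its introns, each above has1.S. These differences between neighbours were not tested. With triptolide, hal.2.L stood at 1.78 TPM in A and 1.24 TPM in B. With cycloheximide it stood at 1.17 TPM in pou5f3.3+sox3 morphants of C and 1.63 TPM in those of D. The pou5f3.2+pou5f3.3+sox3 morphants of F with cycloheximide had 0.064 TPM. The maternal share of hal.2.L in F and G was not tested, so its exon percents are not comparable between collections.

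**Figure D5:**
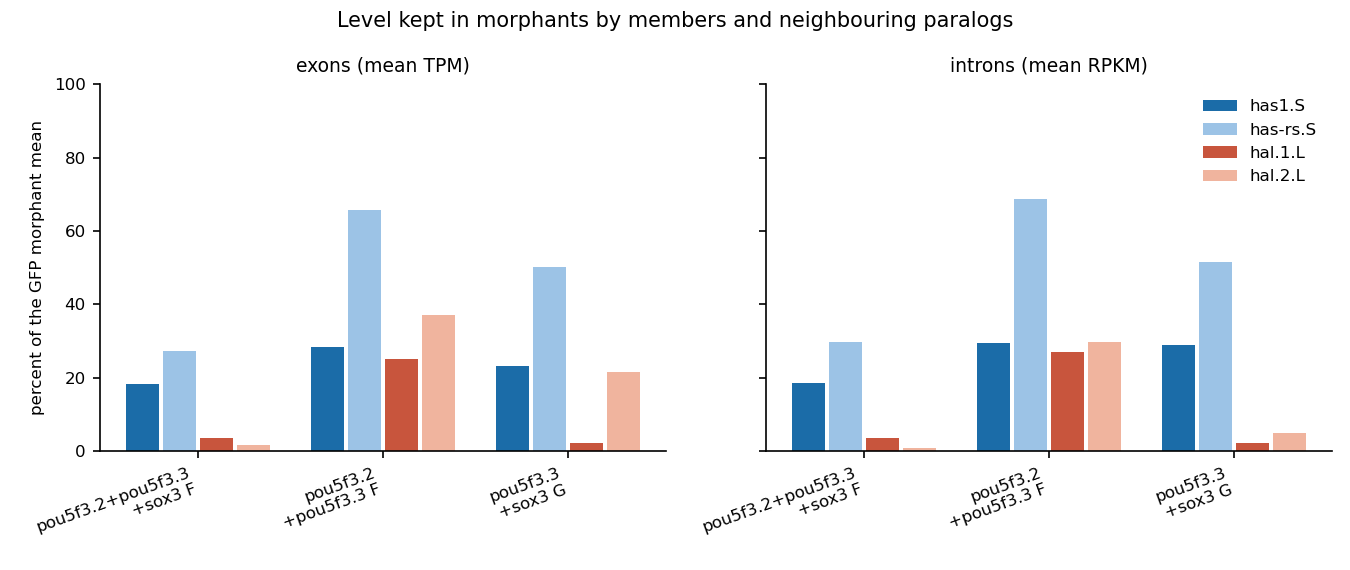
Level kept in morphants as a percent of the GFP morphant mean of the same collection, for exons (left, TPM) and introns (right, RPKM) of has1.S, its neighbour has-rs.S, hal.1.L and its neighbour hal.2.L; bars are ratios of means of 3 libraries each, without an error. hal.1.L keeps 3.49% and 2.29% of its exons in the pou5f3.2+pou5f3.3+sox3 and pou5f3.3+sox3 morphants and 25.0% in the pou5f3.2+pou5f3.3 morphants.

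The LPA list holds the LPA-producing enzymes, phosphatases that remove LPA, receptors and genes that act after the receptors. It also holds rb1.S, the gene whose span holds lpar6.S, which is none of these. Of the 36 copies on the list, 32 were tested. At stage 9 against stage 5, 19 were called higher and 2 lower, against 35.4% and 6.44% of all genes. lpar4.S counts in both, because its introns were higher (7.05) and its exons lower (-1.68). With triptolide in B, 17 were called lower, against 29.8% of all genes. Of the 19, 14 were higher in introns alone. Among the receptors, lpar2.L (4.47, SE 0.30) and lpar3.L (1.77, SE 0.52) were higher in exons at stage 9 and lpar5.L lower (-1.86, SE 0.31).

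In morphants, 3 LPA copies were called higher and 3 lower with pou5f3.2+pou5f3.3+sox3, 0 and 2 with pou5f3.2+pou5f3.3, and 2 and 2 with pou5f3.3+sox3. The shares of all genes called higher and lower were 3.86% and 2.83%, 2.24% and 1.62%, and 3.41% and 1.45% in the same order. plpp3.L, a phosphatase that can dephosphorylate LPA, was lower in all 3 (exons -2.03, SE 0.22; -1.54, SE 0.21; and -1.77, SE 0.27). plpp3.S was lower in pou5f3.2+pou5f3.3+sox3 (-2.00, SE 0.45) and, through introns (-1.94), in pou5f3.3+sox3 morphants, and plpp2.L introns were lower in both morphants of F (-2.01 and -1.61). lpar2.S introns were higher in pou5f3.2+pou5f3.3+sox3 and pou5f3.3+sox3 morphants (2.69 and 2.04), as were those of arhgef1.S, a guanine nucleotide exchange factor gene (1.85 and 1.66), and arhgef1.L introns were higher in the first (2.65). List medians were -0.03, -0.04 and -0.13, against -0.02, -0.03 and -0.09 over all genes. Of the most abundant copies, gna13.L, liph.S, rb1.S, enpp2.L (autotaxin, which makes LPA) and arhgef12.S had exon differences between -0.33 and 0.05 and none was called.

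Markers of germ layers and of p53 were counted beside the fall of the 4 copies, since embryos can differ in their tissue make-up and morpholinos can stress cells. Over all genes, 2.83% were called lower and 3.86% higher in pou5f3.2+pou5f3.3+sox3, 1.62% and 2.24% in pou5f3.2+pou5f3.3, and 1.45% and 3.41% in pou5f3.3+sox3 morphants. Of 22 ectoderm marker copies, 9 were lower and 1 higher in pou5f3.2+pou5f3.3+sox3, 4 and 2 in pou5f3.2+pou5f3.3, and 6 and 1 in pou5f3.3+sox3 morphants, with the largest differences in tfap2a.L and tfap2a.S in F (-5.07 and -4.39, and -4.34 for both) and in tfap2a.L and dlx3.S in G (-3.17 and 3.1). Their summed level was 1501 to 1690 TPM and 1480 to 1580 TPM in the morphants of F, against 1515 to 1560 TPM in GFP morphants, and 1207 to 1382 TPM in those of G, against 1251 to 1384 TPM, and krt12.4.S was at 0 in every library of GFP morphants of F and of both groups of G. Of 20 mesoderm copies, 2 were lower and 1 higher (pou5f3.2+pou5f3.3+sox3), none was called (pou5f3.2+pou5f3.3) and 1 was lower (pou5f3.3+sox3). tbxt.L and tbxt.S had differences of -2.83 and -1.95 in the first, called lower, and of -1.41 and -1.32 in the second, not called; in G mespa.S differed by 2.30, not called, and tbxt.S by -1.55, called lower but not with a scaling from exons alone. The summed mesoderm level was 303 to 404 TPM and 404 to 434 TPM against 366 to 415 TPM in F, and 171 to 221 TPM against 187 to 223 TPM in G, where cdx4.S was at 0 in the GFP morphants.

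Of 19 endoderm copies, 6, 3 and 2 were higher and none lower, where 3.86%, 2.24% and 3.41% of all genes were higher. The largest differences of these copies, apart from foxa2.L, were in gata4.S and gata6.S in F (2.42 and 2.41, and 1.73 and 2.07) and in gata6.S and gata6.L in G (3.50 and 1.67, gata6.L being called through its introns). Their summed level was 202 to 277 TPM and 204 to 221 TPM in morphants of F, against 109 to 121 TPM in GFP morphants, and 127 to 163 TPM in those of G, against 68.1 to 82.2 TPM, with foxa2.L at 0 in both GFP groups and the morphants of G. Of 16 p53 target copies, 8 were higher in pou5f3.3+sox3 morphants of G, where 3.41% of all genes were. The largest exon differences there were in ccng1.L (2.86, SE 0.41) and cdkn1a.L (1.98, SE 0.37). Of the p53 target copies, 1 (mdm2.L, through introns) was higher in pou5f3.2+pou5f3.3+sox3 and none in pou5f3.2+pou5f3.3 morphants. In these, ccng1.L and gadd45a.L had the largest exon differences (1.37 and -1.06, and 0.74 and -0.73), not called. Their summed level was 257 to 285 TPM in the morphants of G, against 235 to 248 TPM in GFP morphants, and 177 to 193 TPM and 188 to 202 TPM in the morphants of F, against 218 to 231 TPM. The part of the germ layer and p53 differences in the fall of has1.S, hal.1.L and the lpar6 copies was not tested.

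The genes with the most similar pattern were sought over the means of 26 conditions outside collection H, as Pearson's r of log2(TPM + 1) among 19041 genes that reached 5 TPM in a condition. These conditions share collections, so r is a description. Only 12 of them hold no morphants, GFP or other. The genes were chosen for a fall in morphants, so their likeness to each other follows in part from that choice. Their r to each other without the morphants was not computed. For has1.S the closest were has-rs.S (r = 0.985), gene18033 (0.984), gene17485 (0.983), admp.L (0.979), a BMP-like ligand of the organizer, and hes7.2.L (0.977), a transcriptional repressor of the Hes family. For hal.1.L they were stx19.L (0.979), a syntaxin, gene17485 (0.978), gene37686 (0.977), XB5961731.L (0.966) and gene27233 (0.964). For lpar6.S they were gene23845 (0.978), foxd4l1.1.L (0.967), a forkhead factor of early neural ectoderm, gene49457 (0.956), gene39610 (0.954) and gene23607 (0.953). Among each other, has1.S and lpar6.L had r = 0.973, has1.S and hal.1.L 0.959, hal.1.L and lpar6.L 0.954, hal.1.L and lpar6.S 0.910, and lpar6.S and lpar6.L 0.896. The lowest value was that of has1.S and lpar6.S, at 0.851, where lpar6.S ranked 397 for has1.S. Without the morphant conditions, 0, 1 and 0 of these 5 neighbours were kept for has1.S, hal.1.L and lpar6.S.

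The cycloheximide libraries of collection H were discarded in the study for a likely problem with the treatment, and no H library entered a test. pou5f3.2+pou5f3.3+sox3 morphants with cycloheximide had 0.901 and 0.859 TPM of has1.S and 0.075 and 0.512 TPM of hal.1.L. GFP morphants with cycloheximide had 12.2, 13.1 and 9.49 TPM of has1.S and 10.7, 9.09 and 9.77 TPM of hal.1.L, above each library with cycloheximide in B, C and D. GFP morphants of H without cycloheximide had 52.1 and 71.6 TPM of has1.S and 44.4 and 35.4 TPM of hal.1.L. lpar6.L stood at 0.130 and 0.373 TPM in the pou5f3.2+pou5f3.3+sox3 morphants with cycloheximide, against 2.46, 2.90 and 3.00 TPM in GFP morphants with it, and at 10.8 and 12.7 TPM in GFP morphants without it.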

How the data were processed

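Exon and intron counts were deposited by the authors, who counted by strand on the X. laevis v9.2 annotation; the submitters' processing notes name HISAT2 2.2.1 and featureCounts 2.0.1. The deposited TPM rest on exon counts and exon lengths, and the deposited RPKM on intron counts, intron lengths and exon totals. TPM of stage 8 replicate 2 and both stage 10.5 libraries sum to 992312, 970709 and 975158, short of the full sum of the other libraries. Counts were tested in R 4.3.3 with edgeR 4.0.16 (TMM, quasi-likelihood), exon and intron entries in 1 matrix of 53 libraries, all but collection H, with 1 coefficient per group. Exon entries needed 0.5 RPM in a library (27601 kept), intron entries a count above 10 and 0.25 RPKM in a library (9916 kept); adjustment ran over 37517 entries. The code was tested on simulated data. The alternatives were DESeq2 1.42.0, other scalings, no filter, 2-group fits, a replicate block, pseudocounts and leaving out libraries. Intervals and floors cover counting error only.

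Genes and lists were chosen with earlier results of these data known. List genes named are the 8 most abundant copies of each pathway list that reach 5 TPM; for marker lists, the 2 with the largest exon difference; for similarity, the 5 highest r. Other called list genes are named after their values were seen. Replicates are embryo sets of 1 day and pooled clutches, so p-values measure the spread between such sets. The 38 replicate pairs differed by more than sampling noise (chi-square per degree of freedom at least 1.26). Promoter motifs were not searched.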

Additional observations from a re-analysis of the deposited data

Results flagged for a closer look

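The fall of has1.S exons with triptolide differed between collections. In A, has1.S stood at 0.328 and 0.392 TPM with triptolide, against 193 and 201 TPM with DMSO; in B it stood at 1.35 and 1.55 TPM with triptolide, against 123 and 119 TPM with DMSO. The interaction in edgeR's quasi-likelihood test, the effect in A minus that in B, was -2.64 on the log2 scale (SE 0.56, adjusted p = 0.0105), with 13 exon counts in A and 80 in B behind the triptolide levels. The same interaction did not pass for hal.1.L exons (1.16, SE 0.81, adjusted p = 0.814), lpar6.L (-1.79, SE 1.19, adjusted p = 0.796) or the introns of has1.S and hal.1.L (adjusted p = 1.00 and 0.3).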

How the results depend on the processing

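No called value changed sign under the alternatives tried. Of the values taken as main results, 389 were counted as unchanged, 9 lost their call and 14 moved. These tallies include calls on pou5f3.3 over sox3 morphants, from which no test is read, hal.1.L exons among those that lost a call. A tested difference was unchanged if it stayed on its side of the threshold, and a count of genes if it stayed the same or similar. Among the other values, which include introns and lpar6.L, 470 were unchanged, 7 gained a call and 30 moved. Leaving out a library did turn the sign of values not called: lpar6.L between pou5f3.3 and sox3 morphants (-5.18 to 2.39), and lpar6.L (-0.63 to 0.69), hal.1.L (-1.62 to 0.03) and has1.S (-0.36 to 0.92) in sox3 over GFP morphants with cycloheximide, and DMSO over untreated embryos in A (-0.64 to 0.24). The has1.S exon difference between stages 8 and 5 was not called in a fit of the 2 groups alone (3.24, 0 copies called) and ran between 2.05 and 4.00 when a library was left out (0 to 1 copies called). The hal.1.L difference between single morphants, which is a description without a test, was -3.49 with the 2 groups alone. It ran between -3.72 and -3.31 when a library was left out. The has1.S difference of cycloheximide over triptolide ran between 1.40 and 1.91. With TMM from exons alone, 2 hyaluronan copies were higher in pou5f3.3+sox3 morphants in place of 1. Of the 5 genes most like each member, a pseudocount of 0.1 TPM kept 3 for has1.S and 2 for lpar6.S, and leaving out the morphants 0, 1 and 0 for has1.S, hal.1.L and lpar6.S. Scaling moved the median exon by up to 0.30 (stage 10.5 over 9). Same-numbered libraries correlated in their deviations by 0.205 to 0.333 in A, by 0.382 in D and by -0.56 to 0.38 elsewhere. With 2 numbers per group in A and D and no shared source in the labels, they were not taken as pairs. A replicate block changed 1 call, lpar6.L with cycloheximide over triptolide (1.92, adjusted p = 0.0409). Groups of 2 libraries, few counts of lpar6.S and of the cycloheximide libraries, and single libraries at stages 6 and 7 and in E limit what these data can show.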
